A study of Homo sapiens with 6 samples.

Results

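FOXO1, FOXO3, FOXO4 and FOXP1 are transcription factors of the forkhead family, among them reported targets of the microRNA miR-9. Their mRNAs were followed with every probe set annotated to exactly 1 of the 4 genes, which gave 16 of the 54613 non-control probe sets on the array. FOXP1 had 8 of them, FOXO3 had 4, FOXO1 had 3 and FOXO4 had 1. A further 3 probe sets are annotated to FOXO3 together with FOXO3B, a near-identical copy, and were left out.

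The study used L428, an established line of Hodgkin lymphoma cells. The cells were nucleofected with a miR-9 inhibitor, an antisense locked nucleic acid (LNA) that pairs with the microRNA and blocks it (3 arrays), or with a scrambled LNA (3 arrays), and total RNA was taken 9 h later. All cells therefore went through nucleofection, the controls included, and no array of cells without an LNA was used here. The 3 replicates of a group carry numbers in the labels, and separate cultures are not stated there. The p-values therefore measure only the spread between these samples, which may be technical.

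FOXO proteins bind DNA in the nucleus and switch on genes of cell cycle arrest, cell death and stress resistance. When growth factors activate PI3 kinase, the kinase AKT phosphorylates FOXO proteins, 14-3-3 proteins hold them in the cytoplasm, and their target genes go quiet. FOXO1 is needed at several steps of B cell development and is reported to be low in classical Hodgkin lymphoma, while FOXP1 supports the survival of mature B cells and holds back their turn into plasma cells. A microRNA lowers its target mRNAs or their translation by pairing through its seed, so the comparison asks whether these mRNAs lie higher when miR-9 is blocked.

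The mature miR-9 sequences are shown because they are what the inhibitor is directed against. They come from RefSeq (GRCh38.p14), run 5′ to 3′, and have the seed (bases 2 to 8) in capitals. The labels do not say which arm the LNA pairs with, and its own sequence was not used here.
hsa-miR-9-5p: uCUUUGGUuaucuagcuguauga
hsa-miR-9-3p: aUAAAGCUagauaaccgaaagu
The 3 human loci MIR9-1 (chromosome 1), MIR9-2 (chromosome 5) and MIR9-3 (chromosome 15) encode the same pair of mature sequences. The 2 arms have different seeds.

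Values are log2 RMA expression, a normalized brightness of each probe set, and a difference is the miR-9 LNA mean minus the scrambled LNA mean. Array medians lay between 7.10 and 7.15. The 90th percentile was 9.53 to 9.57 on the miR-9 LNA arrays, against 9.28 on scrambled replicate 1 and 9.45 and 9.47 on scrambled replicates 2 and 3. Scrambled replicate 1 thus stood apart in its bright signals. Among markers of Reed-Sternberg cells, 9 of 9 lay above the level filter of the test, described in the next paragraph, CD30 (TNFRSF8) at 10.57 with the miR-9 LNA and 10.45 in the scrambled controls. Of the B cell markers 4 of 7 lay above it, of the T cell markers 0 of 4, and of the monocyte and macrophage markers 1 of 3. The B cell genes BCL6, SPIB, CD79A and POU2F2 were above it. They were at 8.83, 8.37, 7.33 and 7.34 with the miR-9 LNA and 8.59, 8.36, 7.40 and 7.34 in the scrambled controls. MS4A1 (CD20), CD79B and POU2AF1 were below it, at 6.72, 6.96 and 6.52 with the miR-9 LNA and 6.75, 6.99 and 6.61 in the scrambled controls.

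The widest difference among the 16 forkhead probe sets was that of FOXO3 at 224891_at, 0.32 on the log2 scale, and 0 of them passed the test across the array. FOXO1 at 202724_s_at and FOXP1 at 224837_at and 224838_at were about 0.2 higher with the miR-9 LNA. The other probe sets of these genes differed by -0.10 to 0.05, and the brightest of FOXP1, 223287_s_at, by -0.09. FOXO4 was the sole member gene without a probe set of higher mean. A level filter kept the 27307 probe sets whose 6-array mean reached the array-wide median of 7.11 for testing with limma, and 11 of the 16 passed it. At a limma adjusted p under 0.05, 0 of these 11 passed, against 0% of all tested probe sets, and the smallest adjusted p anywhere was 0.296. At a limma unadjusted p under 0.05, 4 of the 11 were higher with the miR-9 LNA, where 13.8% of all tested probe sets were, and 0 were lower, where 0.626% were. The groups did not overlap for 5 of the 11, of which 4 were higher (18.1% of all tested) and 1 lower (3.97%) with the miR-9 LNA. The mean was higher for 7 of the 11, beside 66.9% of all tested probe sets. The 11 probe sets read only 4 genes, so they are not independent, and their median difference of 0.05 was close to the 0.06 of all tested probe sets. In bulk RNA a change in level per cell and a change in the share of expressing cells cannot be told apart.

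**Figure D1:**
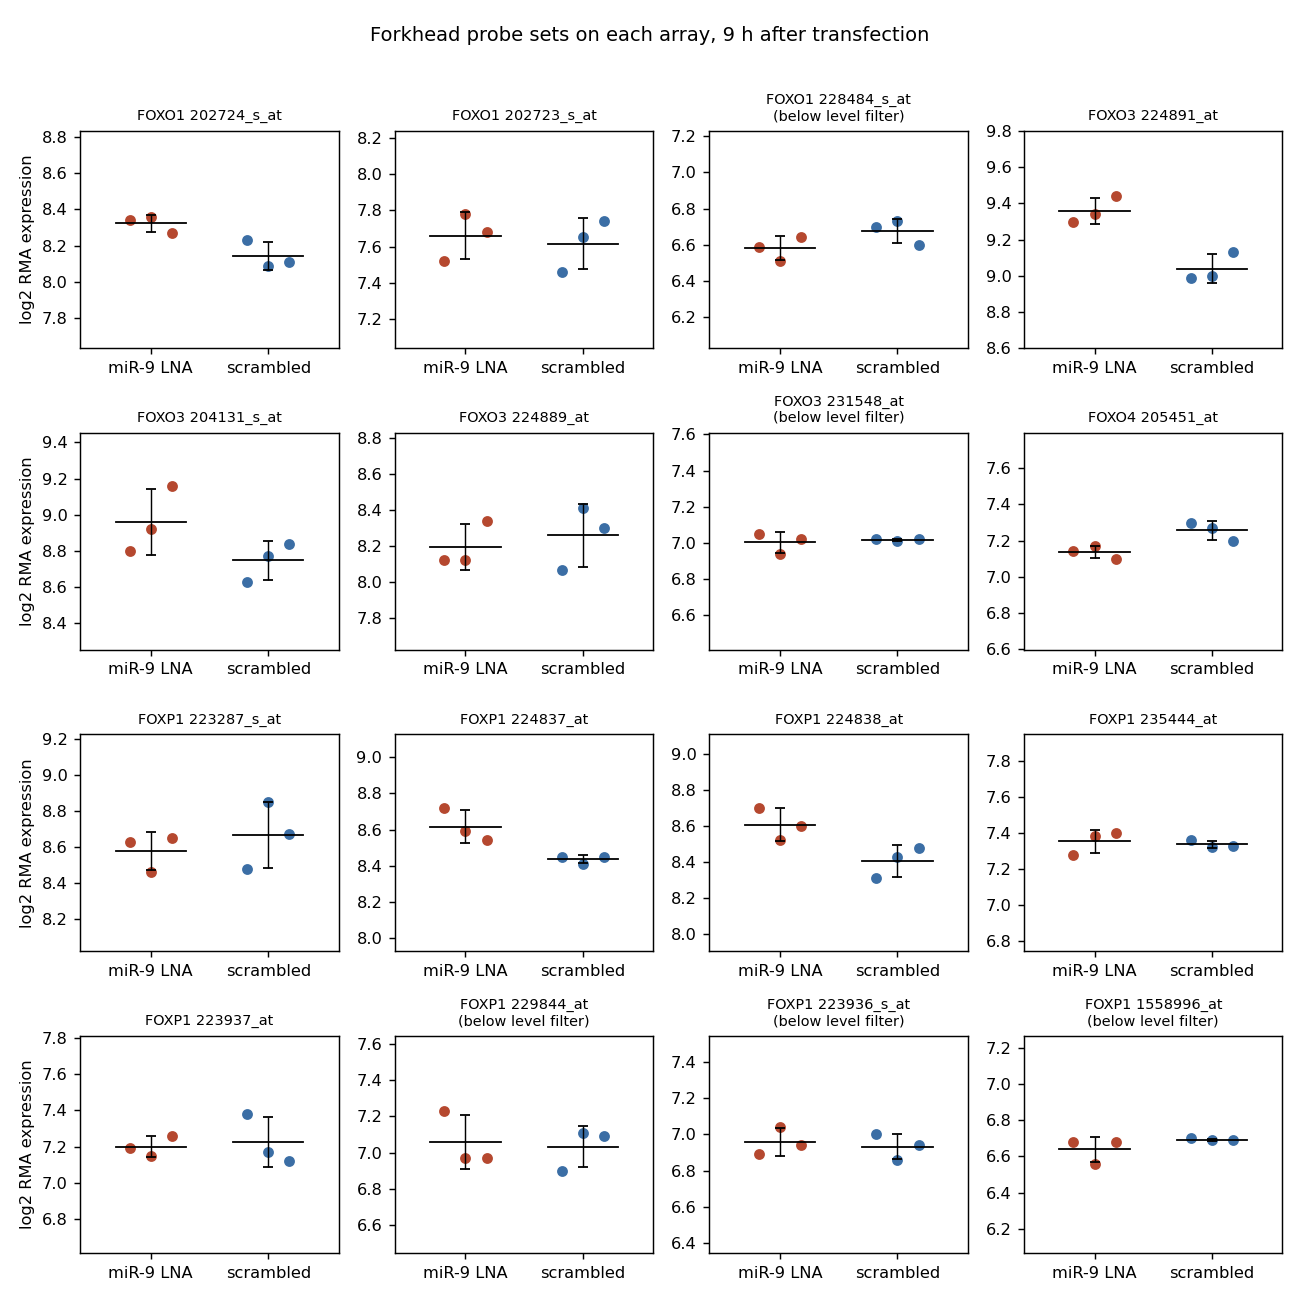
Log2 RMA expression (vertical axes, each spanning 1.2 units) of the 16 forkhead probe sets on the 3 miR-9 LNA arrays (left, red) and the 3 scrambled LNA arrays (right, blue), in replicate order, with the mean and SD in black. FOXO3 at 224891_at shows the widest gap, 9.30 to 9.44 with the miR-9 LNA and 8.99 to 9.13 in the scrambled controls.

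FOXO3, a FOXO factor that drives cell death and antioxidant genes, lies on chromosome 6 (GRCh38.p14 chr6:108559825-108684774). Its brightest probe set, 224891_at, was at 9.30, 9.34 and 9.44 on the miR-9 LNA arrays and at 8.99, 9.00 and 9.13 on the scrambled arrays. The groups did not overlap, and the 3 same-numbered pairs differed by nearly equal amounts, 0.31, 0.34 and 0.32. The difference was 0.32 ± 0.07 (SE, n = 3 arrays per group, 95% interval 0.16 to 0.48), a 1.25-fold higher signal (1.12 to 1.40), with a limma adjusted p of 0.296. By p it ranked 98th among all tested probe sets. With the tested probe sets cut into 5 equal bins by level, the median difference of its bin was 0.14, and 2.01% of that bin had a larger difference. After quantile normalization of the arrays, 224891_at differed by 0.17 and its groups still did not overlap (limma adjusted p = 0.900). Without scrambled replicate 1 the difference was 0.30.

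At every other FOXO3 probe set the groups overlapped, with differences of 0.21, -0.07 and -0.01. At 204131_s_at FOXO3 was at 8.80, 8.92 and 9.16 with the miR-9 LNA and at 8.63, 8.77 and 8.84 in the scrambled controls. The groups overlapped, although each miR-9 LNA array lay above the scrambled array of its number. The difference at 204131_s_at was 0.21 ± 0.10 (limma adjusted p = 0.386), and 0.09 after quantile normalization. With replicate number as a block it passed an unadjusted p of 0.05, as it did not without the block, and its limma adjusted p was 0.159. Without miR-9 LNA replicate 3, its highest array, the difference at 204131_s_at was 0.11.

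At 224889_at FOXO3 had the opposite sign. It was at 8.12, 8.12 and 8.34 with the miR-9 LNA and at 8.07, 8.41 and 8.30 in the scrambled controls, a difference of -0.07 ± 0.10 (limma adjusted p = 0.771) and of -0.14 after quantile normalization. Scrambled replicate 1 was the lowest and scrambled replicate 2 the highest of the 6 arrays, so the control arrays spanned the miR-9 LNA arrays. The dim FOXO3 probe set 231548_at did not reach the level filter, with values from 6.94 to 7.05 and a difference of -0.01 ± 0.05.

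Whether probe sets of one gene differ in their response was tested within each array, a comparison chosen after the values were seen. For FOXO3, 224891_at minus 224889_at was 1.18, 1.22 and 1.11 on the miR-9 LNA arrays and 0.92, 0.59 and 0.83 on the scrambled arrays. The gap between these probe sets was thus wider by 0.39 with the miR-9 LNA, with no overlap between the groups (two-sided exact permutation p = 0.1, the smallest that 3 against 3 arrays allow). This gap was wider by 0.32 after quantile normalization, again without overlap. FOXO3 at 204131_s_at minus 224889_at was wider by 0.28 (exact permutation p = 0.1), and 224891_at minus 204131_s_at by 0.11 with overlapping groups (exact permutation p = 0.3). Over 14 such pairs, of which 1 was of FOXO1, 3 of FOXO3 and 10 of FOXP1, the groups did not overlap in 4. Of these 4, FOXP1 at 224837_at minus 235444_at overlapped after quantile normalization, with a change of 0.04. The pairs share probe sets and so are not independent, and the share over all same-gene pairs on the array was not computed. Benjamini-Hochberg adjustment gave exact permutation p-values from 0.35 upwards. The 3 tested FOXO3 probe sets thus gave differences of 0.32, 0.21 and -0.07, and 0 of the pair tests passed after adjustment. No pair could have passed, because the smallest possible exact permutation p of 0.1 lies above the threshold used for limma. The pair tests therefore cannot decide whether probe sets of one gene differ in their response.

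**Figure D2:**
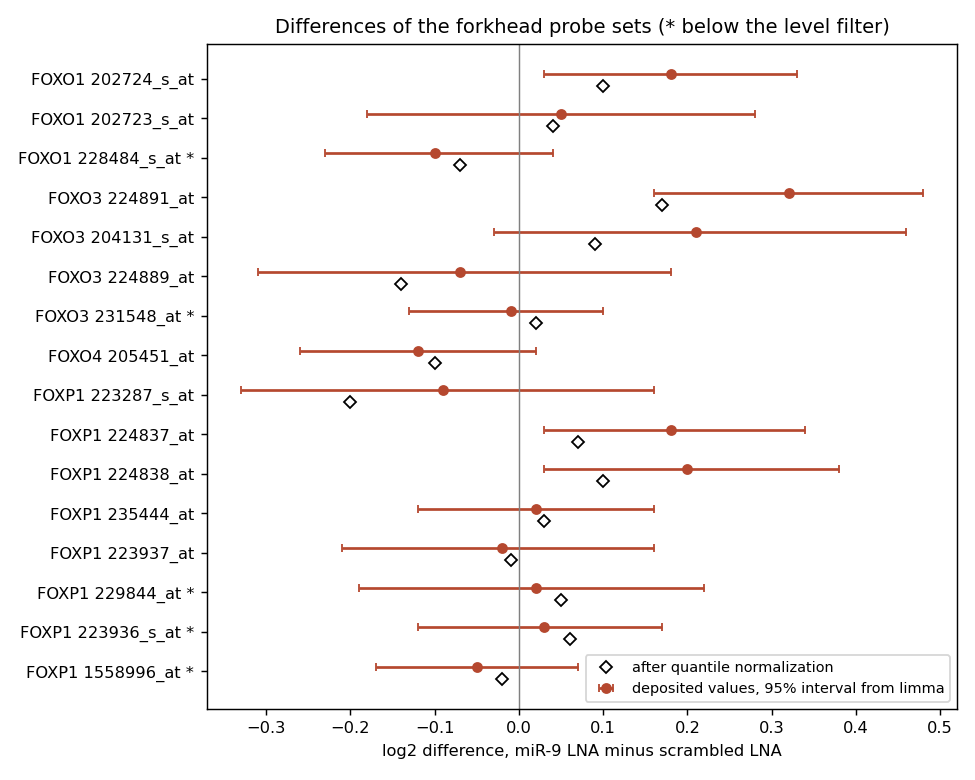
Log2 difference, miR-9 LNA minus scrambled LNA (horizontal axis), of the 16 forkhead probe sets in the deposited values (red, with the 95% interval from limma) and after quantile normalization (open diamonds). The interval of FOXO3 at 224891_at runs from 0.16 to 0.48, and the 2 FOXP1 probe sets 224837_at and 224838_at and FOXO1 at 202724_s_at also lie above 0 before adjustment for multiple tests.

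FOXO1, the main FOXO factor of B cells and a driver of cell cycle inhibitors, lies on chromosome 13 (GRCh38.p14 chr13:40555667-40666641). At 202724_s_at FOXO1 was at 8.34, 8.36 and 8.27 with the miR-9 LNA and at 8.23, 8.09 and 8.11 in the scrambled controls. The groups did not overlap, the closest values being 8.27 and 8.23. The difference was 0.18 ± 0.07 (limma adjusted p = 0.313). After quantile normalization it was 0.10, with overlapping groups, and the median difference of FOXO1's level bin in the deposited values was 0.06. Leaving out each array in turn, the FOXO1 difference at 202724_s_at ran from 0.15 to 0.22.

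FOXO1 at 202723_s_at was at 7.52, 7.78 and 7.68 with the miR-9 LNA and at 7.46, 7.65 and 7.74 in the scrambled controls. These arrays overlapped widely, and the difference was 0.05 ± 0.10 (limma adjusted p = 0.834). At 228484_s_at, below the level filter, FOXO1 averaged 6.58 ± 0.07 with the miR-9 LNA and 6.68 ± 0.07 in the scrambled controls (SD, n = 3 each), a difference of -0.10 ± 0.06. All values after ± are SDs beside a group mean and SEs beside a difference.

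Set against FOXO1 within each array, the brightest FOXO3 probe set stood 0.96, 0.98 and 1.18 above the brightest FOXO1 probe set with the miR-9 LNA, and 0.76, 0.91 and 1.02 above it in the scrambled controls. These levels come from different probe sets, so only the change between the groups can be read. It was 0.14, larger than 0 in 3 of 3 same-numbered pairs, but the groups overlapped (two-sided exact permutation p = 0.3). Averaged over the tested probe sets of each gene, the same quantity was 0.04 (exact permutation p = 0.9). With 3 against 3 arrays no exact permutation p below 0.1 is possible, so this test could not have passed 0.05. It therefore cannot decide whether the difference was larger for FOXO3 than for FOXO1.

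FOXO4, the shortest of the 4 genes, lies on the X chromosome (GRCh38.p14 chrX:71095851-71103532) and encodes a FOXO factor under the same AKT control. Its single probe set, 205451_at, was at 7.14, 7.17 and 7.10 with the miR-9 LNA and at 7.30, 7.27 and 7.20 in the scrambled controls. Each miR-9 LNA array lay below each scrambled array, by 0.03 at the closest. The difference was -0.12 ± 0.06 (limma adjusted p = 0.381) and -0.10 after quantile normalization, where the groups again did not overlap. FOXO4 lay in the dimmest level bin, whose median difference was -0.03. The 95% interval of the FOXO4 difference ran from -0.26 to 0.02.

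FOXP1, a repressor with long and short isoforms, lies on chromosome 3 and is the longest of the 4 genes (GRCh38.p14 chr3:70954708-71583978). Probe sets 224837_at and 224838_at gave nearly equal differences. At 224837_at FOXP1 was at 8.72, 8.59 and 8.54 with the miR-9 LNA and at 8.45, 8.41 and 8.45 in the scrambled controls, a difference of 0.18 ± 0.07 (limma adjusted p = 0.313). At 224838_at it was at 8.70, 8.52 and 8.60 with the miR-9 LNA and at 8.31, 8.43 and 8.48 in the scrambled controls, a difference of 0.20 ± 0.08 (limma adjusted p = 0.315). At both, the groups did not overlap, and miR-9 LNA replicate 1 was the highest array. The median difference of their level bin was 0.14, and 35.0% and 26.4% of that bin had a larger difference than 224837_at and 224838_at. After quantile normalization the 2 probe sets differed by 0.07 and 0.10, and their groups overlapped.

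The FOXP1 probe set of highest mean, 223287_s_at, lay the other way. It was at 8.63, 8.46 and 8.65 with the miR-9 LNA and at 8.48, 8.85 and 8.67 in the scrambled controls, a difference of -0.09 ± 0.10 (limma adjusted p = 0.702). As for FOXO3 at 224889_at, scrambled replicate 2 was the highest of the 6 arrays and the groups overlapped. Without scrambled replicate 2 the FOXP1 difference at 223287_s_at was 0.01, and without scrambled replicate 1 it was -0.18. After quantile normalization 223287_s_at differed by -0.20, with all miR-9 LNA arrays below all scrambled arrays (limma adjusted p = 0.900). Within the arrays, FOXP1 at 223287_s_at minus 224838_at was -0.07, -0.06 and 0.05 with the miR-9 LNA and 0.17, 0.43 and 0.19 in the scrambled controls. This within-array quantity differed by -0.29 in the deposited values and by -0.30 after quantile normalization (two-sided exact permutation p = 0.1 in the deposited values, 0.35 after adjustment over the 14 pairs), with no overlap in either.

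The other 2 tested FOXP1 probe sets were dim and near 0, with differences of 0.02 ± 0.06 at 235444_at and -0.02 ± 0.08 at 223937_at (limma adjusted p = 0.911 and 0.897). Below the level filter, FOXP1 differed at 229844_at, 223936_s_at and 1558996_at by 0.02 ± 0.09, 0.03 ± 0.06 and -0.05 ± 0.05. Over all 5 forkhead probe sets below the filter, array values ran from 6.51 to 7.23, and the differences from -0.10 to 0.03.

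Across the array the difference varied with the level of the probe set. From the dimmest to the brightest of the 5 level bins, the median difference was -0.027, -0.005, 0.06, 0.142 and 0.187, and after quantile normalization it lay between -0.007 and 0.017 in every bin. The 4 forkhead probe sets at a limma unadjusted p under 0.05 lay in bins 3 and 4. After quantile normalization 1 of the 11 tested forkhead probe sets was higher at a limma unadjusted p under 0.05 (2.38% of all tested) and 1 was lower (2.17%), FOXO3 at 224891_at and FOXP1 at 223287_s_at. The groups then did not overlap for 3 of the 11, of which 1 was higher (5.97%) and 2 lower (5.73%). Blocked by replicate number, 5 of the 11 were higher at a limma unadjusted p under 0.05, where 21.8% of all tested probe sets were, and 0 passed after adjustment. The part of array-wide brightness in the forkhead differences was not tested beyond these values.

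**Figure D3:**
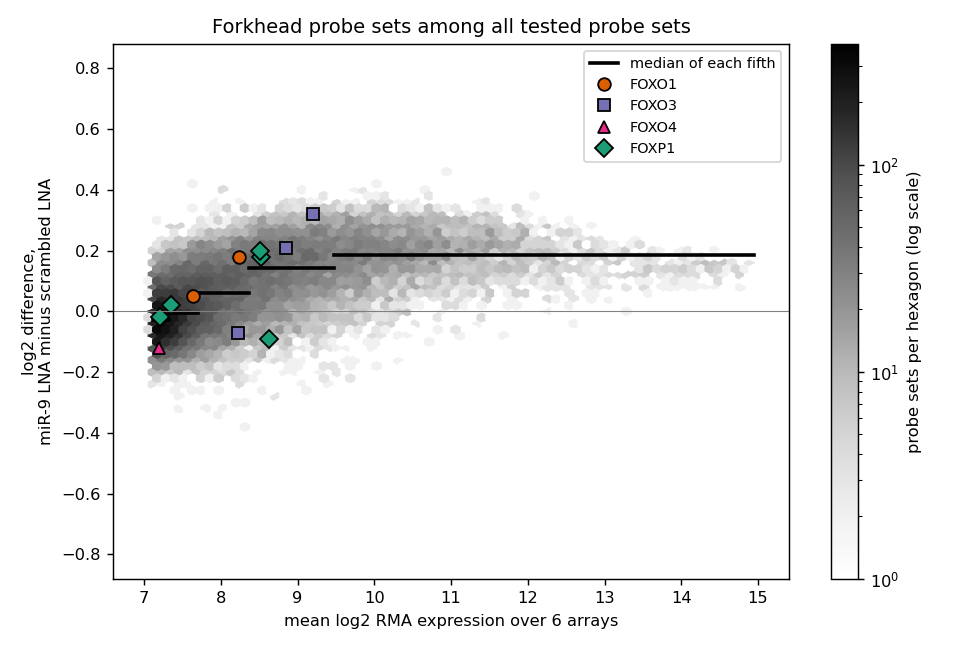
Log2 difference, miR-9 LNA minus scrambled LNA (vertical axis), against mean log2 RMA expression over the 6 arrays (horizontal axis), with all 27307 tested probe sets as grey hexagons, the median of each of 5 level bins as a black line and the 11 tested forkhead probe sets as coloured symbols. FOXO3 at 224891_at (0.32) lies above the median of its bin (0.14), and FOXP1 at 223287_s_at (-0.09) lies below it.

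Genes whose pattern over the 6 arrays was closest to a member were listed by the root mean square difference of mean-centred log2 values, over 12366 other genes. For FOXO3 at 224891_at these were CCSER2, ARPP19 and RALGAPA1, at 0.027, 0.032 and 0.036, where the median gene was at 0.170. For FOXO1 at 202724_s_at they were DYM, the forkhead gene FOXM1 and HCP5, at 0.026, 0.027 and 0.028. For FOXO4 at 205451_at they were CROCCP3, CPSF1 and PSD, at 0.010, 0.014 and 0.015. For FOXP1 at 223287_s_at they were H3-3A, CD40 and SLC46A1, at 0.034, 0.040 and 0.043. These matches rest on 6 arrays and are a description only.

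Upstream of FOXO stand the PI3 kinases, AKT, 14-3-3 proteins and the enzymes that modify FOXO proteins. Of 43 listed genes 35 were tested, read by the brightest probe set of each gene. In either direction 0 passed a limma adjusted p of 0.05, and at a limma unadjusted p under 0.05 9 were higher and 0 lower, where 17.4% of the 12367 tested genes were higher and 0.598% lower. Blocked by replicate number, 14 were higher and 0 lower at that p, where 25.9% of all tested genes were higher and 0.784% lower. Their means were higher with the miR-9 LNA for 30 and lower for 5, a share of 85.7% higher beside 70% of all tested genes. Their median difference was 0.14 beside 0.08 for all tested genes. They are bright, with a median level of 9.69 beside 8.42, and after quantile normalization 20 were higher and 15 lower, with a median of 0.011, where 49.5% of all tested genes were higher.

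PIK3CB, a catalytic subunit of PI3 kinase, was at 9.35, 9.27 and 9.22 with the miR-9 LNA and at 8.90, 9.04 and 9.01 in the scrambled controls. Its groups did not overlap, and its difference of 0.30 ± 0.07 (limma adjusted p = 0.296) was 0.16 after quantile normalization. PPP2CA, the catalytic subunit of a phosphatase that can dephosphorylate FOXO proteins, differed by 0.30 ± 0.08, and PIK3CG, another PI3 kinase subunit, by 0.22 ± 0.07. USP7, which removes ubiquitin from FOXO proteins, differed by 0.21 ± 0.07. The limma adjusted p was 0.296 for all of these. After quantile normalization PPP2CA, PIK3CG and USP7 differed by 0.13, 0.03 and 0.02.

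Among the upstream genes of lower mean, AKT1, the kinase that sends FOXO proteins out of the nucleus, averaged 8.96 ± 0.05 with the miR-9 LNA and 9.01 in each scrambled control, and differed by -0.05 ± 0.06 and by -0.18 after quantile normalization. PIK3R1, the regulatory PI3 kinase subunit, was at 9.17, 9.03 and 9.05 with the miR-9 LNA and at 8.72, 9.64 and 9.26 in the scrambled controls, a difference of -0.12 ± 0.20. The 14-3-3 genes SFN and YWHAE differed by -0.05 ± 0.07 and -0.07 ± 0.21 (limma adjusted p = 0.756 and 0.893). YWHAE was at 11.08, 11.05 and 11.06 with the miR-9 LNA and at 11.68, 10.90 and 10.81 in the scrambled controls, and differed by 0.21 without scrambled replicate 1. PIK3R1 differed by -0.37 without that array. YWHAQ, a 14-3-3 gene and the brightest of the list, averaged 13.94 ± 0.04 with the miR-9 LNA and 13.79 ± 0.19 in the scrambled controls, and differed by 0.14 ± 0.10 (0.03 without scrambled replicate 1).

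Of 50 reported FOXO target genes 39 were tested. At a limma adjusted p of 0.05, 0 passed, and at a limma unadjusted p under 0.05 6 were higher and 0 lower, a share of 15.4% higher beside 17.4% of all tested genes. Blocked by replicate number, 14 were higher at that p and 2, BCL2L11 and SESN2, were lower, where 25.9% and 0.784% of all tested genes were, and 0 passed after adjustment. Means were higher with the miR-9 LNA for 30 and lower for 9, a share of 76.9% beside 70% of all tested genes, with a median difference of 0.13. That median was 0.03 without scrambled replicate 1 and also 0.03 without miR-9 LNA replicate 3, where 22 genes were higher, and it was 0.20 without scrambled replicate 3. After quantile normalization 20 were higher and 19 lower.

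TNFSF10, which encodes the death ligand TRAIL, was at 10.79, 10.78 and 11.09 with the miR-9 LNA and at 10.44, 10.40 and 10.65 in the scrambled controls. Its groups did not overlap, and the difference was 0.39 ± 0.11 (limma adjusted p = 0.296) and 0.20 after quantile normalization. KLF6, a zinc finger factor, differed by 0.32 ± 0.09, and RBL2, a pocket protein that holds cells out of the cycle, by 0.27 ± 0.09. SOD2, a mitochondrial antioxidant enzyme, was at 9.47, 9.23 and 9.54 with the miR-9 LNA and at 8.36, 8.96 and 9.26 in the scrambled controls, a difference of 0.55 ± 0.21 (limma adjusted p = 0.319). Its groups overlapped, scrambled replicate 1 was the lowest array, and without scrambled replicate 1 SOD2 differed by 0.30. BCL2L11, which encodes the death protein BIM, averaged 7.96 ± 0.09 with the miR-9 LNA and 8.12 ± 0.11 in the scrambled controls, a difference of -0.17 ± 0.08 (limma adjusted p = 0.380). SESN2, a stress sensor, differed by -0.15 ± 0.09 and by -0.26 after quantile normalization. GABARAPL1, of autophagy, and PIK3IP1, an inhibitor of PI3 kinase, differed by -0.06 ± 0.06 and -0.05 ± 0.07. The brightest target, PMAIP1, which encodes the death protein NOXA, averaged 12.90 ± 0.07 with the miR-9 LNA and 12.81 ± 0.53 in the scrambled controls. The PMAIP1 difference was 0.09 ± 0.23, and -0.22 without scrambled replicate 1, which was at 12.19 beside 13.11 and 13.12 on the other scrambled arrays.

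Of 23 reported FOXP1 target genes 16 were tested, a mix of genes it represses and genes it activates. At a limma adjusted p of 0.05, 0 passed, and 2 were higher and 0 lower at a limma unadjusted p under 0.05, a share of 12.5% higher beside 17.4% of all tested genes. Blocked by replicate number, 4 were higher at that p, namely TCF3, HLA-DMA, IRF4 and PRDM1, beside 25.9% of all tested genes, and 0 passed after adjustment. Means were higher for 11 and lower for 5, a share of 68.8% higher beside 70% of all tested genes, with a median difference of 0.07 (0.02 without scrambled replicate 1). TCF3, a B lineage factor, differed by 0.21 ± 0.06 and HLA-DMA, an MHC class II chaperone, by 0.21 ± 0.07, but by 0.02 and 0.03 after quantile normalization. The plasma cell factors IRF4 and PRDM1, which FOXP1 is reported to restrain, differed by 0.20 ± 0.08 and 0.20 ± 0.12 (limma adjusted p = 0.348 and 0.446), and by 0.01 and 0.09 after quantile normalization. PRDM1 differed by 0.12 without scrambled replicate 1. SDC1, a plasma cell surface marker, CD74, the MHC class II invariant chain, BIK, a death gene, and S1PR2, a germinal centre receptor, differed by -0.06, -0.05, -0.02 and -0.02, each by less than its SE or about equal to it. Without scrambled replicate 1 CD74 and BIK each differed by 0.02. HLA-DPA1, the brightest, averaged 13.75 ± 0.10 with the miR-9 LNA and 13.69 ± 0.12 in the scrambled controls.

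**Figure D4:**
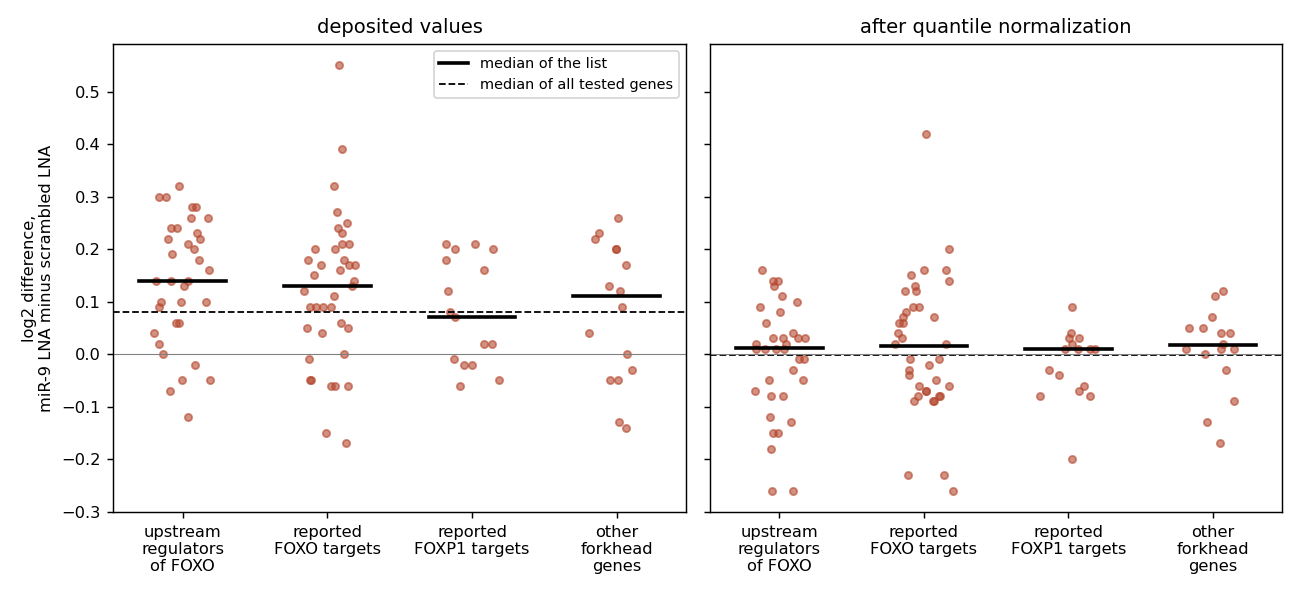
Log2 differences, miR-9 LNA minus scrambled LNA (vertical axis), of the tested genes of 4 lists (1 point per gene), in the deposited values (left) and after quantile normalization (right), with each list's median as a solid line and the median of all tested genes as a dashed line. The medians of 0.14, 0.13, 0.07 and 0.11 in the deposited values were 0.011, 0.016, 0.009 and 0.018 after quantile normalization.

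Of 37 other forkhead genes 16 were tested. At a limma adjusted p of 0.05, 0 passed, and 5 were higher and 0 lower at a limma unadjusted p under 0.05, a share of 31.2% higher beside 17.4% of all tested genes. Means were higher for 10 and lower for 6, a share of 62.5% higher beside 70% of all tested genes, with a median difference of 0.11 (0.07 without scrambled replicate 1). FOXJ3 was at 10.30, 10.29 and 10.32 with the miR-9 LNA and at 9.94, 10.10 and 10.10 in the scrambled controls, a difference of 0.26 ± 0.07 (limma adjusted p = 0.296). FOXM1, a driver of mitotic genes, FOXK2 and FOXN2 differed by 0.20 ± 0.06, 0.23 ± 0.09 and 0.22 ± 0.08. FOXN3, the brightest, differed by 0.20 ± 0.09 (0.11 without scrambled replicate 1). These bright forkhead genes differed by 0.01 to 0.11 after quantile normalization. FOXJ1, known for the genes of motile cilia, averaged 7.67 ± 0.06 with the miR-9 LNA and 7.81 ± 0.05 in the scrambled controls, with no overlap and a difference of -0.14 ± 0.06. FOXN4, FOXP2 and FOXP4 differed by -0.13 ± 0.09, -0.05 ± 0.06 and -0.05 ± 0.08. Without scrambled replicate 1 FOXN4 differed by -0.04 and FOXP4 by 0.03.

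FOXO proteins bind the element GTAAACA, which reads TGTTTAC on the opposite strand. Both strands of the RefSeq promoter windows (GRCh38.p14, 250 bases before to 50 after a start) of the 4 genes were searched for it, and the bases around each match are shown with the match in capitals. It occurs in the 1 window of FOXO4 and in 1 of 6 windows of FOXP1, in 0 of 1 of FOXO1 and 0 of 4 of FOXO3, and in 3.42% of 35116 windows of the same length.
FOXO4 chrX:71095863-71095891, plus strand: cccggcgagtgGTAAACAgagacgtcagg
FOXP1 chr3:71245253-71245281, minus strand: aactatgttatTGTTTACtttaccataca
A match is one of letters and does not show that a protein binds there, and a window without one says only that these letters are not in it.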

How the data were processed

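Total RNA of 6 L428 samples was hybridized to Affymetrix HG-U133 Plus 2.0 arrays. The deposited log2 values came from RMA in affy, as the submitters' processing notes state; versions are not given in the sources used here. Each array's lowest value was near 6, which leaves an added offset possible. Such an offset would understate differences of dim genes.

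Of 54675 probe sets, 62 controls were left out. The 27307 at or above the median mean level (7.11) were tested two-sided with limma 3.58.1 (lmFit, eBayes; R 4.3.3), with Benjamini-Hochberg adjustment over all of them, and called at 0.05. Values below the filter were read from a fit without it. Gene symbols are those of GEO's platform table, with 1 symbol for 41091 probe sets, several for 1801 and none for 11721. In lists the brightest probe set stood for its gene. The number of arrays limits the precision.

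The members, lists and tests were chosen with earlier results of these data known. All member probe sets are named, plus, from each list, the 4 tested genes of smallest p in each direction and the brightest. Genes of the most similar pattern are the 3 closest to each member's brightest probe set.

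The deposited labels do not say what a replicate number shares. Arrays of 1 number deviated together from their group means (r = 0.231, 0.193 and 0.634 over probe sets, against -0.429 to 0.168 for other array pairs). These r values are tied to each other, because departures within a group cancel out, so positive values force negative ones elsewhere. The 0.193 of number 2 was also close to the 0.168 of miR-9 LNA replicate 1 with scrambled replicate 2. The r values therefore cannot decide whether equal numbers are pairs, and taking them as pairs was an assumption. Scripts were tested on simulated data. Python 3.11.15 and matplotlib 3.10.9 drew the figures. Alternatives covered the filter, normalization, variance model, array weights, replicate block, probe set rule and leaving out each array.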

Additional observations from a re-analysis of the deposited data

How the results depend on the processing

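Under every alternative run, limma called 0 forkhead probe sets, 0 list genes and 0 probe sets at an adjusted p under 0.05. The unadjusted count over the array was 3926, and was 2584 with a 75th percentile filter (fewer probe sets tested), 1243 after quantile normalization, 6218 with the replicate block, and 2405 (without miR-9 LNA replicate 1; 2538 without replicate 2) to 4385 (without scrambled LNA replicate 3) leaving out each array. The 4 of 11 forkhead probe sets higher at an unadjusted limma p under 0.05 became 2 of 7 with the 75th percentile filter. With that filter 2584 of all 13654 tested probe sets had such a p in either direction. The forkhead count was 1 of 10 with a variance filter and 1 of 11 after quantile normalization (2.38% of all tested). Without single arrays it was 1 (without scrambled LNA replicate 2) to 3 of 11. It was 2 without miR-9 LNA replicate 1 or 2 or scrambled LNA replicate 3. The 0 of 11 that were lower became 1 of 16 without a filter and 1 of 11 after quantile normalization (2.17% of all tested). With a trended robust variance 1 of 11 was lower, and with array weights 2 of 11. In either direction, 5880 of all 54613 probe sets had such a p without a filter. Of 27307 tested, 3328 did with the variance filter, 3294 with the trended robust variance and 5537 with array weights. These totals join both directions, and the share that was lower is not given here for these settings. They are thus no measure for the counts of lower forkhead probe sets. In the main fit 13.8% of all tested probe sets were higher at that p and 0.626% were lower. The cause of the changes in the counts was not tested. The replicate block changed no call at the adjusted threshold. At an unadjusted p under 0.05 it gave 14 upstream genes, 14 FOXO targets, 4 FOXP1 targets and 6 other forkhead genes as higher, where 9, 6, 2 and 5 were without it. The share of all tested genes that were higher at that p rose as well, from 17.4% without the block to 25.9% with it. FOXO3 at 224891_at kept its direction throughout (0.17 to 0.37), and FOXO3 minus FOXO1 within an array stayed above 0 (0.04 to 0.20).

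The probe sets that changed sign all lay within 0.09 of 0 in the deposited values. Without single arrays, FOXO1 202723_s_at reached -0.01 and -0.03 (range -0.03 to 0.12), FOXO3 224889_at 0.01 (-0.16 to 0.01), FOXO3 231548_at 0.02 (-0.04 to 0.02), FOXP1 223287_s_at 0.01 (-0.18 to 0.01), FOXP1 235444_at -0.01 (-0.01 to 0.05), FOXP1 223937_at 0.05 (-0.08 to 0.05), FOXP1 229844_at -0.07 and -0.05 (-0.07 to 0.06) and FOXP1 223936_s_at -0.02 and -0.01 (-0.02 to 0.06). FOXO3 231548_at was at 0.02 after quantile normalization, and FOXP1 223937_at at 0.01 with array weights.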
